A study of Homo sapiens with 45 samples.

Results

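The comparison described here set HCT116 cells treated with small interfering RNA (siRNA) against HNRNPK beside a second set of control libraries, named Scramble. Its members are 6 of the 45 samples of the series, chosen by their library names: the 4 siHNRNPK libraries and the 2 Scramble libraries, joined on the gene symbols that their count tables share. The same 4 siHNRNPK libraries were also set against the 4 siNTC5 control libraries, and the question was which knockdown changes have the same direction against both control sets, pathway by pathway. HCT116 is an established human colon cancer cell line. The series as a whole is concerned with chromatin at the nuclear lamina, the protein meshwork lining the inside of the nuclear envelope, and adds domain maps of lamin B1 and histone marks to the RNA measurements.

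All 10 RNA libraries came from cells reverse-transfected with siRNA at 25 nM by RNAiMAX, a lipid reagent, and collected after 72 hours. The siHNRNPK cells received siRNA to HNRNPK, and the siNTC5 and Scramble cells received non-targeting siRNA. RNA of the siHNRNPK and siNTC5 libraries was purified on a Maxwell instrument, and RNA of both Scramble libraries with a Qiagen RNeasy kit. Libraries 1 and 2 of siHNRNPK and of siNTC5 and both Scramble libraries (numbers 5 and 6) were made with the TruSeq stranded mRNA kit, and libraries 3 and 4 of siHNRNPK and siNTC5 with the Stranded mRNA Ligation kit. The control siRNA, the purification, and the table in which the reads were counted therefore change together between Scramble and the other libraries, and their parts in any difference cannot be told apart. The labels do not say whether libraries of a group came from separate cultures, so the p-values measure the spread between these libraries, which may be technical.

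HNRNPK encodes hnRNP K, a poly(C)-binding protein with KH domains that binds cytosine-rich stretches in RNA and single-stranded DNA. It acts in transcription, pre-mRNA splicing, mRNA stability and translation, and it is a known cofactor of p53 and a partner of long non-coding RNAs in gene silencing. In colon cancer cells it is abundant in the nucleus and shuttles to the cytoplasm.

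The deposited totals were 12107280 to 23633851 counts in the 8 siHNRNPK and siNTC5 libraries and 59209169 and 55007171 counts in the Scramble libraries. The tables shared 25527 gene names, which held 97 to 97.1% of the counts of the 8 libraries and 94.7% of those of the Scramble libraries, and 14642 of these genes passed the filter on low counts. Levels below are CPM, counts relative to library sizes that were scaled by the trimmed mean of M-values (TMM). They are compared between libraries for 1 gene and not between genes, because they are not divided by gene length. Across genes, log2 CPM correlated at 0.991 to 0.998 between libraries of a group, at 0.958 to 0.973 between siNTC5 and siHNRNPK, and at 0.842 to 0.852 between Scramble and siHNRNPK. Between siNTC5 and Scramble it correlated at 0.877 to 0.888. The Scramble libraries thus stood further from both other groups than those groups stood from each other. All tested genes entered these values, including the genes set apart below. A gene is called when its adjusted p in edgeR's quasi-likelihood test is under 0.05, with the kit as a term of the model. The strand setting of the counting is not given in the sources used here, so reads of genes that overlap, or of a gene and its antisense partner, may not be separable.

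One group of genes was set apart before any result. For 743 of the 14642 tested genes (5.07%), both Scramble libraries lay at least 8-fold above or at least 8-fold below every one of the 8 other libraries, a criterion chosen after the data were seen. Of these genes, 668 were higher in Scramble and 75 lower, and 556 of the 668 were under 1 CPM in all 8 other libraries. ACTN4, which encodes the actin crosslinker alpha-actinin 4, had 1096 and 1051 CPM in the Scramble libraries and at most 0.295 CPM in the others. RPS18, a ribosomal protein gene, had 1807 and 1861 CPM in Scramble and at most 0.669 CPM elsewhere. RPL21 showed the reverse, with no count in either Scramble library and 649.6, 668, 791 and 784 CPM in the siHNRNPK libraries. Of the 743 genes, 116 were called against siNTC5, and counts are given with and without them where they matter.

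HNRNPK itself (chr9:83968083-83980615 on GRCh38, overlapped by MIR7-1, HNRNPK-AS1 and RMI1) was lower in every siHNRNPK library. Its level was 249.9, 223, 156 and 163 CPM in siHNRNPK libraries 1 to 4, 815 and 851 CPM in the Scramble libraries and 931, 968, 827 and 819 CPM in the siNTC5 libraries. The siHNRNPK values lay below all 6 control values, and the Scramble values lay within the range of the siNTC5 values or close below it. The mean of 198 ± 45.7 CPM (SD, n = 4) was 23.8% of the Scramble mean of 833 ± 25.5 CPM (SD, n = 2) and 22.3% of the siNTC5 mean of 886 ± 74.7 CPM (SD, n = 4), and with the 2 TruSeq siHNRNPK libraries alone it was 28.4% of the Scramble mean. The log2 fold change was -1.91 ± 0.08 (SE) against Scramble and -2.18 ± 0.06 against siNTC5 (edgeR adjusted p = 7e-14 and 1.22e-14). An exact two-sided permutation test of the 4 siHNRNPK against the 2 Scramble values gave p = 0.133, the smallest that the 15 splits allow. In bulk RNA, fewer cells expressing a gene and less of its RNA per cell cannot be told apart, here or for any gene below.

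Against Scramble, 11886 of the 14642 genes were called (81.2%), 5675 higher and 6211 lower in siHNRNPK. Against siNTC5, 9977 were called (68.1%), 4956 higher and 5021 lower. Of the 8480 genes called against both, 7346 had the same direction (50.2% of all tested genes), 3598 higher (24.6%) and 3748 lower (25.6%). The same-direction genes made up 86.6% of the genes called against both, 73.6% of the siNTC5 calls and 61.8% of the Scramble calls. Another 1134 genes (7.74%) went in opposite directions: 592 (4.04%) were higher against siNTC5 and lower against Scramble, and 542 (3.7%) were lower against siNTC5 and higher against Scramble. The contrasts share the 4 siHNRNPK libraries, so these shares describe the counts and are no independent repeat. Among the same-direction genes, 5885 (40.2% of all tested) had all 4 siHNRNPK values above or all 4 below all 6 control values.

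**Figure D1:**
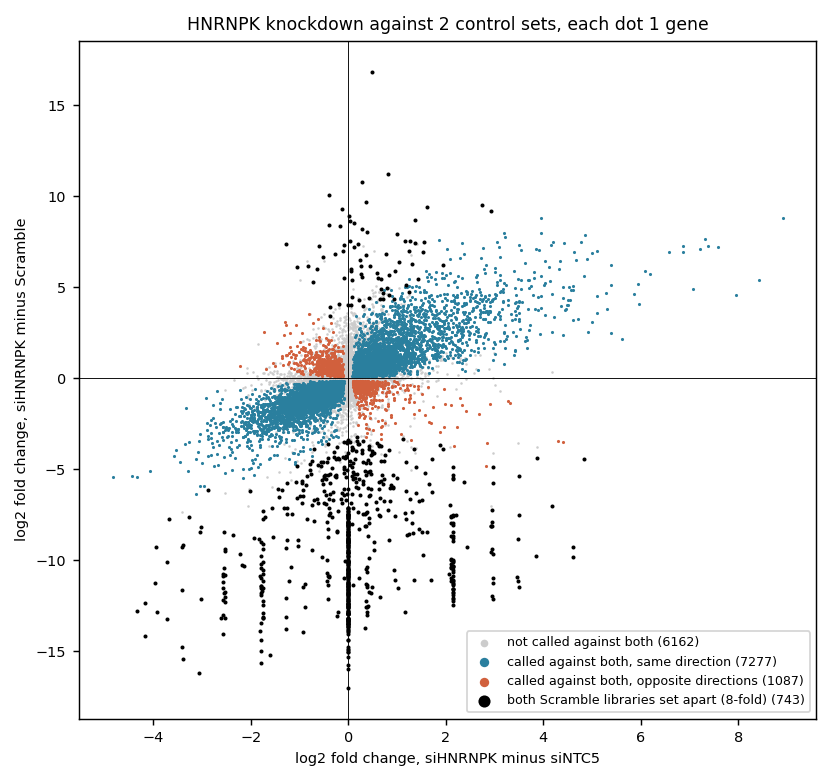
Each dot is 1 tested gene, placed by its log2 fold change siHNRNPK minus siNTC5 (horizontal) and siHNRNPK minus Scramble (vertical). Blue dots are the 7277 genes called in the same direction, orange dots the 1087 called in opposite directions, and grey dots those not called against both; the 743 black dots are the genes with both Scramble libraries set apart, which lie mainly far below the others on the vertical axis.

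Differences were wider against Scramble. Over all tested genes the median size of the log2 fold change was 0.729 against Scramble, 0.422 against siNTC5 and 0.481 between the control sets, and 10146 genes (69.3%) were called between Scramble and siNTC5. Of the 7346 same-direction genes, 5560 (75.7%) had the larger log2 fold change against Scramble, with median absolute values of 0.97 against Scramble and 0.64 against siNTC5. All 1134 opposite-direction genes were called between the control sets. That largely follows from their opposite calls, because the control contrast is the difference between the 2 knockdown effects. Their median absolute log2 fold changes were 0.52 against Scramble and 0.36 against siNTC5. Without the 743 set-apart genes, 7277 of the 13899 remaining genes had the same direction (3567 higher and 3710 lower) and 1087 opposite directions. With a 2-fold change required in both contrasts as well, those genes gave 967 higher, 926 lower and 52 opposite.

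A pair of contrasts with no library in common was also fitted: TruSeq siHNRNPK libraries 1 and 2 against Scramble, and Ligation siHNRNPK libraries 3 and 4 against siNTC5 libraries 3 and 4. Here 7259 genes were called in both, of which 6353 had the same direction (43.4% of all tested genes, 3065 higher and 3288 lower) and 906 opposite directions (6.19%). The same-direction genes were 87.5% of those called in both. The libraries are separate here but the kit differs between the contrasts. A test of whether the knockdown effect against siNTC5 differs between kits called 15 of 13275 genes.

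Raised genes were ranked if their mean log2 CPM was at least 3 and their siHNRNPK libraries lay above all 6 controls. Among these, the 8 with the largest rise against both control sets held an epithelial keratin, a chemokine and secreted or membrane proteins. Some genes of lower level rose more. KRT80, a type II keratin, was at 53.2, 53.7, 53 and 58.7 CPM in siHNRNPK, 4.08 and 2.69 CPM in Scramble and 3.13, 3.18, 1.61 and 1.54 CPM in siNTC5. CXCL8, the neutrophil-attracting chemokine interleukin-8, was at 30.2, 37.6, 31.6 and 33.1 CPM in siHNRNPK, 2.42 and 1.95 CPM in Scramble and 2.07, 1.96, 1.14 and 1.16 CPM in siNTC5. Both genes were under 5 CPM in every control library and above 30 CPM in every siHNRNPK library. The log2 fold change of KRT80 (chr12:52168996-52192014) was 4.06 ± 0.18 (SE) against Scramble and 4.49 ± 0.15 against siNTC5 (edgeR adjusted p = 3.02e-13 and 5.92e-14). That of CXCL8 (chr4:73740569-73743716) was 4.00 ± 0.16 (SE) against Scramble and 4.36 ± 0.14 against siNTC5 (edgeR adjusted p = 6.84e-14 and 2.68e-14).

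THBS1, which encodes the matrix protein thrombospondin 1, was at 92.9, 88.0, 99.9 and 95.1 CPM in siHNRNPK, 7.85 and 7.85 CPM in Scramble and 13.9, 15.9, 12.5 and 9.75 CPM in siNTC5. CMYA5, a muscle-associated protein gene, was at 22.6, 23.3, 24.3 and 24 CPM, 1.34 and 0.910 CPM and 3.55, 3.09, 3.62 and 2.7 CPM in the same order. AOC3, the vascular adhesion protein and amine oxidase, was at 70.5, 71.2, 71.8 and 77.9 CPM, 7.45 and 7.0 CPM and 11.2, 14.2, 13.5 and 13.6 CPM. For these 3 genes the lowest values were those of Scramble, so the rise was larger against Scramble: 3.62 against Scramble and 2.85 against siNTC5 for THBS1, 4.36 against Scramble and 2.87 against siNTC5 for CMYA5 and 3.29 against Scramble and 2.47 against siNTC5 for AOC3, as log2 fold changes. C1S, a complement protease, WNK4, a kinase that regulates ion transport, and KCNJ14, a potassium channel, rose as well, by 3.56 against Scramble and 2.38 against siNTC5, by 3.21 against Scramble and 2.47 against siNTC5 and by 2.56 against Scramble and 2.48 against siNTC5. A call in edgeR against both control sets was a condition for naming these 8 genes.

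The same rule for lowered genes named SHANK3, IFT80, C16orf74, H6PD, LMF1, PRAF2, BCKDHA and INPP5A. H6PD, the dehydrogenase that starts the pentose phosphate route inside the endoplasmic reticulum (chr1:9234774-9271337), was at 4.47, 4.16, 3.02 and 3.52 CPM in siHNRNPK, 92.0 and 79.9 CPM in Scramble and 40.2, 35.3, 47.0 and 46.5 CPM in siNTC5. BCKDHA, a subunit of the enzyme that breaks down branched-chain amino acids (chr19:41397818-41425002), was at 5.00, 4.01, 3.02 and 3.35 CPM in siHNRNPK, 65.2 and 61.9 CPM in Scramble and 34.2, 27.8, 35.6 and 35.3 CPM in siNTC5. In both genes the order was Scramble highest, siNTC5 next and siHNRNPK lowest, without overlap. H6PD fell with log2 fold changes of -4.57 ± 0.13 (SE) against Scramble and -3.44 ± 0.12 against siNTC5 (edgeR adjusted p = 9.22e-16 and 7.12e-14), and BCKDHA with -4.05 ± 0.14 (SE) against Scramble and -3.07 ± 0.13 against siNTC5.

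INPP5A, an inositol phosphate phosphatase, was at 3.09, 1.34, 2.10 and 1.47 CPM in siHNRNPK, 18.3 and 17.7 CPM in Scramble and 19.2, 16.5, 15.5 and 16.0 CPM in siNTC5. Its control libraries were alike, and so were its log2 fold changes, -3.05 ± 0.17 (SE) against Scramble and -3.05 ± 0.16 against siNTC5. C16orf74 fell by 3.93 against Scramble and by 3.53 against siNTC5 on the log2 scale, and LMF1, a factor for the maturation of lipases, fell by 5.10 and by 3.29. SHANK3, IFT80 and PRAF2 belong to the set-apart genes. SHANK3, a scaffold of synapses, had no count in any siHNRNPK library, 45.9 and 43.8 CPM in Scramble and 0.118, 0.125, 0.0670 and 0.110 CPM in siNTC5, so its siNTC5 level was near 0 as well. Without the set-apart genes the rule adds MYOM3, KREMEN1 and 1 further gene; KREMEN1, a receptor that dampens Wnt signalling, was at 11.4, 9.59, 10.1 and 9.65 CPM in siHNRNPK, 95.4 and 91.5 CPM in Scramble and 65.7, 64.4, 75.9 and 82.0 CPM in siNTC5.

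**Figure D2:**
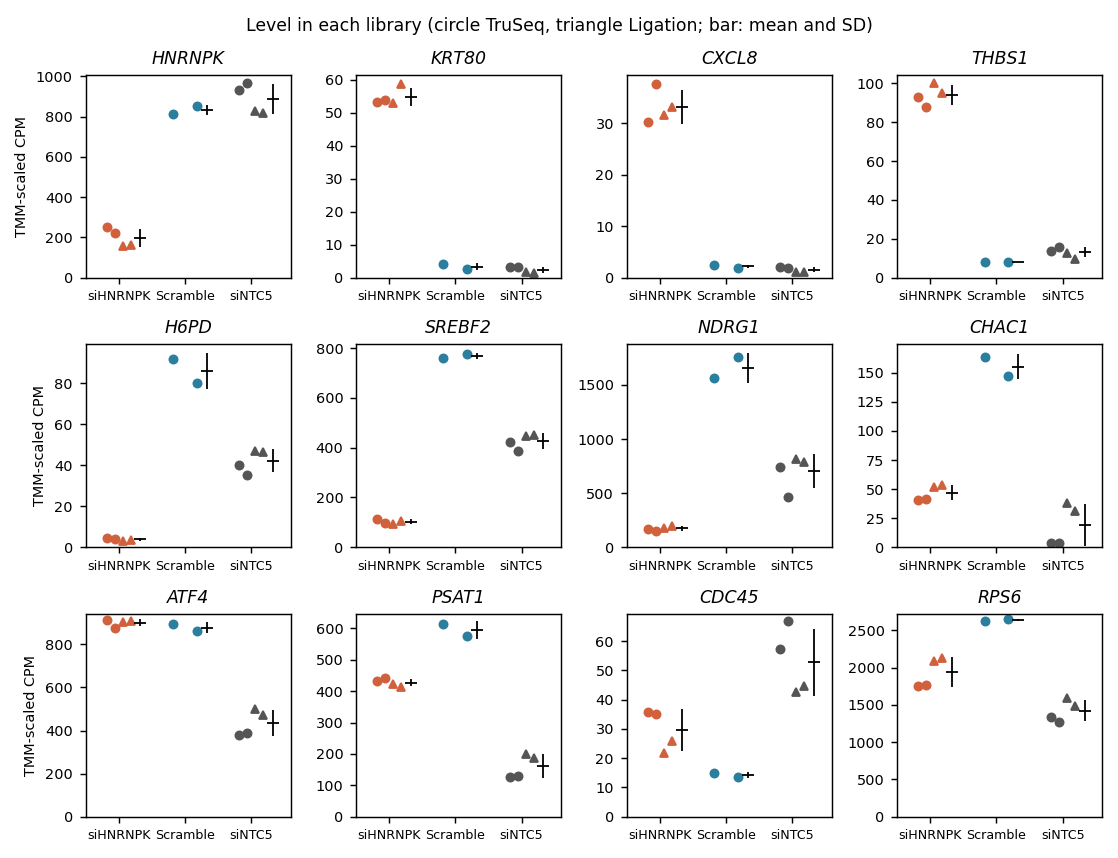
TMM-scaled CPM of 12 genes in each of the 10 libraries (circles, TruSeq kit; triangles, Ligation kit), with the mean and SD of each group at its right. KRT80, CXCL8 and THBS1 are high only in siHNRNPK; H6PD, SREBF2 and NDRG1 are lowest in siHNRNPK and highest in Scramble; for CHAC1, PSAT1, CDC45 and RPS6 the siHNRNPK mean lies between the means of the control sets, and for ATF4 the siHNRNPK values overlap those of Scramble.

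The pathways were read from gene lists, 38 of which held a tested gene. Together these lists had 1339 tested genes, of which 410 were higher against both control sets, 268 were lower against both and 150 went in opposite directions. For each list the counts below are to be read against the shares over all tested genes given above, and its median log2 fold change against the median over all tested genes, -0.04 against Scramble and 0 against siNTC5. No set test was run.

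**Figure D3:**
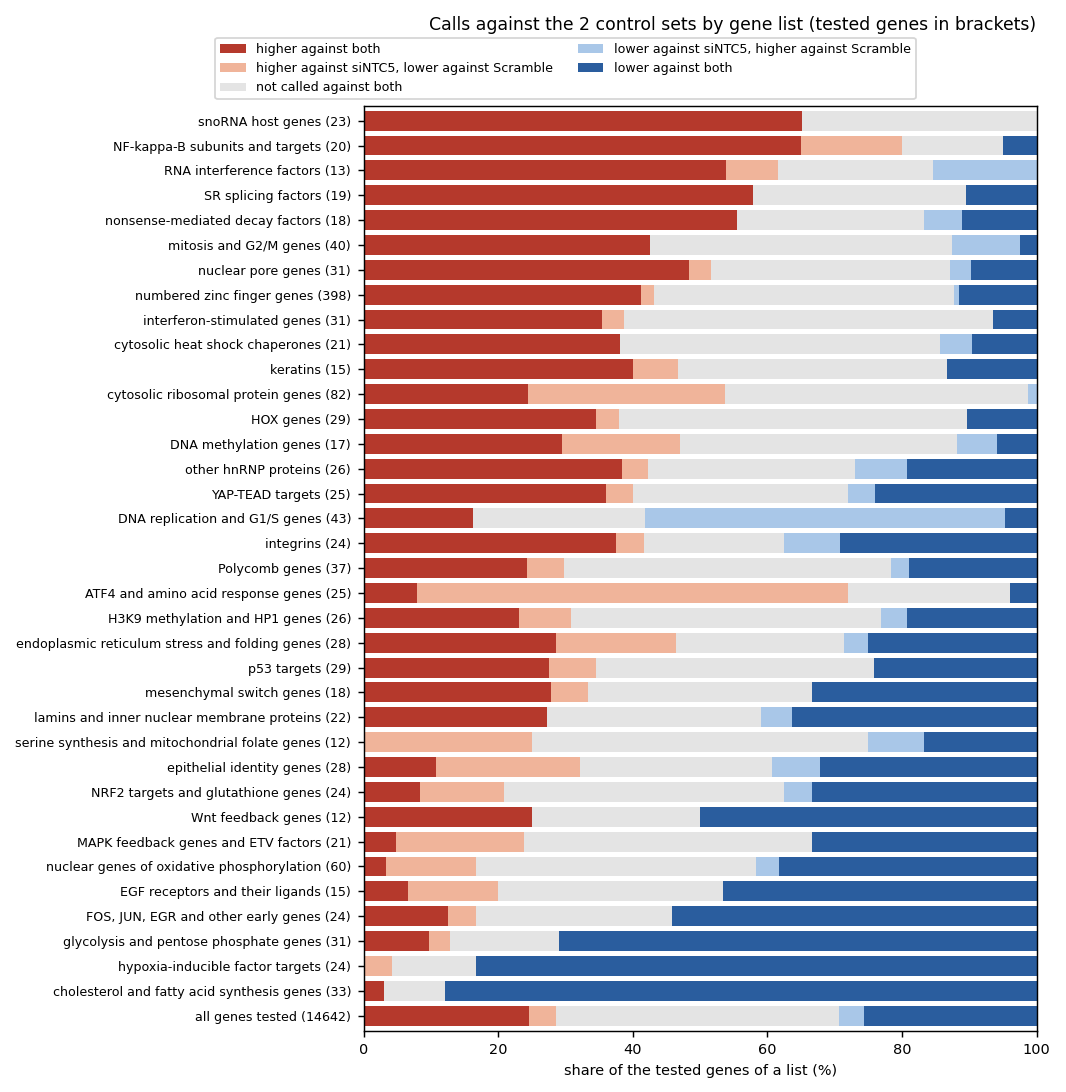
Share of the tested genes of each list (number in brackets) by call: higher against both control sets (dark red), higher against siNTC5 and lower against Scramble (light red), not called against both (grey), lower against siNTC5 and higher against Scramble (light blue), and lower against both (dark blue), with all 14642 tested genes in the bottom bar. Lists of snoRNA host and NF-kappa-B genes lie at the red end, cholesterol, hypoxia and glycolysis genes at the blue end, and the light bars are widest for ATF4 response and DNA replication genes.

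Genes of sterol and fatty acid synthesis were lower against both control sets. Of 33 tested members, 29 were lower against both, 1 was higher against both and none went in opposite directions, and 28 had every siHNRNPK value below all 6 control values. The median log2 fold change was -1.36 against Scramble and -1.05 against siNTC5. SREBF2, the transcription factor that switches on cholesterol synthesis when sterols run low, was at 113, 99.0, 91.4 and 106 CPM in siHNRNPK, 762 and 779 CPM in Scramble and 425, 385, 447 and 452 CPM in siNTC5. The siHNRNPK values did not overlap either control set. Its log2 fold change was -2.93 ± 0.08 (SE) against Scramble and -2.06 ± 0.06 against siNTC5 (edgeR adjusted p = 1.85e-16 and 1.47e-14).

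ACSS2, which makes acetyl-CoA from acetate, fell with log2 fold changes of -2.32 against Scramble and -1.92 against siNTC5. FASN, the fatty acid synthase, was at 422, 383, 791 and 737 CPM in siHNRNPK, 1886 and 1698 CPM in Scramble and 1318, 879, 1431 and 1426 CPM in siNTC5. INSIG1, which holds the sterol sensor in the endoplasmic reticulum, was at 65.0, 59.6, 62.5 and 58.3 CPM, 203 and 261 CPM and 184, 166, 179 and 186 CPM in the same order. Both were lower in every siHNRNPK library than in any control: the log2 fold change was -2.01 against Scramble and -1.17 against siNTC5 for FASN and -1.93 against Scramble and -1.54 against siNTC5 for INSIG1. The member that rose against both was FADS2, a fatty acid desaturase, with 0.53 against Scramble and 0.32 against siNTC5.

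SREBF2 is among the targets of its own family of factors, whose classical site in sterol-regulated promoters is TCACNCCAC. This motif was sought, after the values had been seen, on both strands of the 300-base windows that RefSeq (GRCh38.p14) gives from 250 bases before to 50 bases after each gene start. It was present in 1 of the 26 windows matched to the list (3.85%), in 1.15% of all 27305 windows and in 1.02% of the 11034 windows of tested genes. The window of SREBF2 is shown because it held the only match in the list. The motif is in capitals and begins 133 bases before the annotated start (chr22:41832952-41833000, plus strand).
SREBF2: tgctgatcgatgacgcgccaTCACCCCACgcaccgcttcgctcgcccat
A match is a description of letters, and the lack of one says only that these letters are not in the window.

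Targets of the hypoxia-inducible factors, which raise glucose uptake and glycolysis when oxygen is low, fell in both comparisons. Of 24 tested members 20 were lower against both, none was higher against both, and 1, the glucose transporter gene SLC2A3, was higher against siNTC5 and lower against Scramble. Their median log2 fold change was -1.29 against Scramble and -0.74 against siNTC5. NDRG1, a stress-responsive gene, was at 166, 149, 182 and 197 CPM in siHNRNPK, 1562 and 1755 CPM in Scramble and 741, 468, 818 and 791 CPM in siNTC5. Its Scramble level was the highest and its siHNRNPK level the lowest, without overlap, and its log2 fold change was -3.43 ± 0.12 (SE) against Scramble and -2.01 ± 0.10 against siNTC5. PFKFB4, which makes the glycolysis activator fructose 2,6-bisphosphate, fell with -2.44 against Scramble and -2.90 against siNTC5. ANGPTL4, an inhibitor of lipoprotein lipase, fell with -2.73 against Scramble and -2.13 against siNTC5, KDM4B, a histone H3 lysine 9 demethylase, with -2.96 against Scramble and -2.02 against siNTC5, and CA9, a carbonic anhydrase often used as a hypoxia marker, with -2.80 against Scramble and -1.58 against siNTC5.

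Glycolysis and pentose phosphate genes followed, with 22 of 31 lower against both, 3 higher against both and 1 opposite (SLC2A3). This list and the hypoxia list overlap, and both hold SLC2A1, SLC2A3, HK2, PFKFB3 and PFKFB4. As a list they had a median log2 fold change of -0.90 against Scramble and -0.55 against siNTC5. ENO2, an enolase, fell with -2.82 against Scramble and -2.47 against siNTC5. LDHA, the lactate dehydrogenase subunit, was at 806, 750.2, 754 and 788 CPM in siHNRNPK, 2477 and 2745 CPM in Scramble and 1175, 1063, 1268 and 1251 CPM in siNTC5. GAPDH, often taken as a reference gene, was at 5205, 4970.1, 4670.3 and 5231 CPM, 8835 and 9662 CPM and 6986, 6268, 6831 and 6573 CPM. Both enzymes were highest in Scramble and lowest in siHNRNPK, with log2 fold changes of -1.79 against Scramble and -0.62 against siNTC5 for LDHA and of -0.88 against Scramble and -0.41 against siNTC5 for GAPDH.

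**Figure D4:**
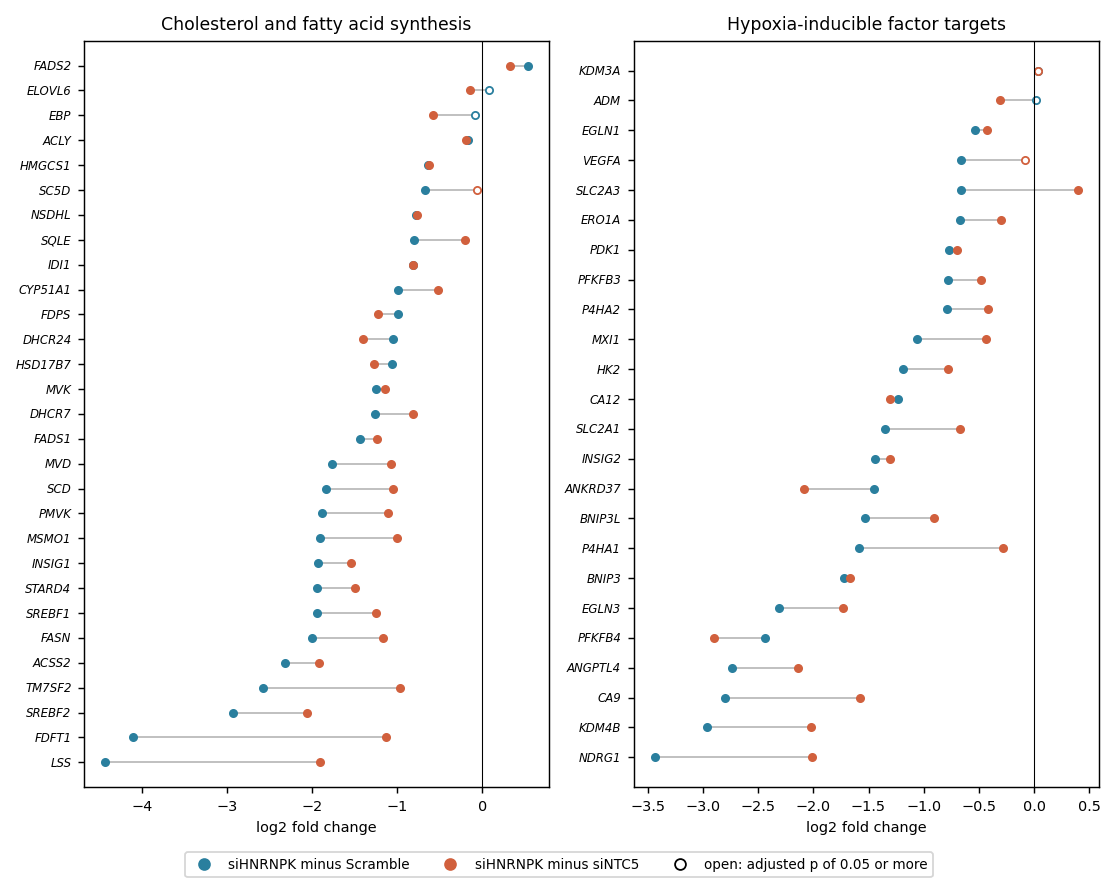
Log2 fold change of each member of the cholesterol and fatty acid synthesis list (left) and of the hypoxia-inducible factor target list (right), siHNRNPK minus Scramble in blue and siHNRNPK minus siNTC5 in orange, joined by a line; open circles are not called, and genes with both Scramble libraries set apart and a few further members are not shown. Nearly all of the drawn pairs lie left of 0, FADS2 lies right of it, and SLC2A3 has its circles on either side.

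Among genes of RNA metabolism, most tested host genes of small nucleolar RNAs were higher against both control sets. These genes carry, in their introns, the guides for rRNA modification, and their spliced transcripts are often removed by nonsense-mediated decay. Of 23 tested hosts 15 were higher against both control sets (65.2%), none was lower against both and none went in opposite directions, and 14 had every siHNRNPK value above all 6 controls. Against each control set alone, 17 were higher and 4 lower against Scramble, and 16 were higher and none lower against siNTC5. In the median their log2 fold change was 1.26 against Scramble and 0.60 against siNTC5. GAS5 was at 427, 477, 405 and 427 CPM in siHNRNPK, 157 and 155 CPM in Scramble and 220.2, 242, 226 and 212 CPM in siNTC5. ZFAS1 was at 241, 256, 241 and 239.7 CPM, 204 and 189.6 CPM and 95.0, 91.2, 88.7 and 91.0 CPM in the same order. GAS5 was lowest in Scramble and ZFAS1 lowest in siNTC5, and the siHNRNPK libraries were highest in both. SNHG5 rose with log2 fold changes of 1.26 against Scramble and 1.56 against siNTC5, SNHG11 with 2.34 against Scramble and 1.19 against siNTC5 and SNHG1 with 2.19 against Scramble and 1.08 against siNTC5. SNHG29 and SNHG32, which the tables list under different names and which enter only when older names are matched, were lower against Scramble (-0.97 and -6.79) and higher against siNTC5 (0.34 and 1.33).

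Factors of nonsense-mediated decay, the pathway that removes transcripts with premature stop codons, were higher against both in 10 of 18 and lower against both in 2, with 1 opposite (SMG9). UPF3B, which links exon junctions to decay, rose with 1.56 against Scramble and 0.83 against siNTC5, CASC3 of the exon junction complex rose with 0.71 against Scramble and 0.58 against siNTC5, and SMG6, the endonuclease of the pathway, fell with -1.11 against Scramble and -0.78 against siNTC5. Of 19 SR splicing factors and their kinases, 11 were higher against both and 2 lower. The CDC-like kinase genes CLK1 and CLK4, which phosphorylate SR proteins, rose with 2.15 against Scramble and 1.16 against siNTC5 and with 1.61 against Scramble and 0.76 against siNTC5, and SRSF8 with 0.61 against Scramble and 0.63 against siNTC5. RNA interference factors were higher against both in 7 of 13 and opposite in 23.1%, against 7.74% of all tested genes. The Argonaute gene AGO3 rose with 2.24 against Scramble and 0.71 against siNTC5. The microRNA processor DROSHA rose with 1.51 against Scramble and 0.42 against siNTC5. Of the opposite members, 2 were lower against siNTC5 and higher against Scramble. The silencing scaffold TNRC6A went the other way, with -0.59 against Scramble and 0.38 against siNTC5.

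The other poly(C)-binding genes moved less than HNRNPK. Of the 5 genes of the poly(C)-binding family, HNRNPK included, 4 were lower against both control sets. PCBP1 was at 193, 176, 205 and 208 CPM in siHNRNPK, 294 and 306 CPM in Scramble and 264, 246, 252 and 252 CPM in siNTC5, with log2 fold changes of -0.65 against Scramble and -0.38 against siNTC5. PCBP4 fell with -0.54 against Scramble and -0.54 against siNTC5. Among the other 26 hnRNP genes, 10 were higher against both, 5 lower against both and 3 opposite. PTBP2, the neuronal polypyrimidine tract-binding protein, rose with 2.22 against Scramble and 0.82 against siNTC5, and RALY fell with -0.94 against Scramble and -0.53 against siNTC5.

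Genes of the inflammatory factor NF-kappa-B rose against both control sets. Of 20 tested members 13 were higher against both (65%), 1 was lower against both and 3 were higher against siNTC5 and lower against Scramble, with median log2 fold changes of 0.88 against Scramble and 0.97 against siNTC5. NFKBIA, the inhibitor that NF-kappa-B induces as feedback, was at 82.1, 91.4, 93.6 and 91.8 CPM in siHNRNPK, 40.0 and 37.6 CPM in Scramble and 27.2, 26.6, 27.9 and 24.5 CPM in siNTC5. TNFAIP3, a ubiquitin-editing brake on the pathway, was at 21.7, 21.4, 29.1 and 27.5 CPM, 6.45 and 7.87 CPM and 9.22, 9.28, 8.71 and 8.10 CPM. Both were above all 6 controls in every siHNRNPK library, with log2 fold changes of 1.19 against Scramble and 1.76 against siNTC5 for NFKBIA and 1.71 against Scramble and 1.48 against siNTC5 for TNFAIP3. The chemokine genes CXCL1 and CCL20 rose with 1.61 against Scramble and 1.80 against siNTC5 and with 3.69 against Scramble and 2.82 against siNTC5 from control levels under 1.5 CPM. RELB, a subunit of the alternative pathway, went opposite ways with -0.78 against Scramble and 0.50 against siNTC5. Without a kit term no member of this list went in opposite directions, and with TruSeq libraries alone 1 did.

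Genes induced quickly by growth factors were lower in part. Of 24 early genes 13 were lower against both, 3 higher against both and 1, JUN, opposite. The call of JUN against Scramble (-0.51) was lost under DESeq2's test, upper-quartile scaling, unscaled totals or no kit term, and without siHNRNPK library 1 or 2. EGR1, a zinc finger factor induced within minutes of stimulation, was at 86.9, 84.5, 61.0 and 64.5 CPM in siHNRNPK, 430.1 and 449 CPM in Scramble and 273, 293, 197 and 199 CPM in siNTC5, and its log2 fold change was -2.34 ± 0.05 (SE) against Scramble and -1.69 ± 0.04 against siNTC5. KLF2 and EGR3 fell with -4.78 against Scramble and -2.67 against siNTC5 and with -2.60 against Scramble and -1.22 against siNTC5. Of the 21 genes that MAP kinase signalling induces as feedback, 7 were lower against both, 1 was higher and 4 were higher against siNTC5 and lower against Scramble, none of these without a kit term. The phosphatase genes DUSP4 and DUSP6 fell with -3.14 against Scramble and -1.77 against siNTC5 and with -2.45 against Scramble and -1.23 against siNTC5, while DUSP5 went opposite ways with -0.35 against Scramble and 0.76 against siNTC5.

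EGFR, the receptor upstream of that pathway, was at 51.8, 41.9, 44.6 and 43.7 CPM in siHNRNPK, 164 and 149 CPM in Scramble and 173, 167, 180.0 and 194 CPM in siNTC5. The control sets were not called different, the siHNRNPK values lay below both, and the log2 fold change was -1.80 ± 0.08 (SE) against Scramble and -1.97 ± 0.07 against siNTC5. Of 15 EGF receptors and ligands 7 were lower against both, 1 higher and 2 opposite; the ligand TGFA fell with -1.35 against Scramble and -0.62 against siNTC5 and the ligand HBEGF went opposite ways with -0.80 against Scramble and 0.57 against siNTC5. Wnt feedback genes divided, with 3 of 12 higher against both and 6 lower: AXIN2, a negative regulator that Wnt signalling induces, rose with 2.37 against Scramble and 1.24 against siNTC5, and KREMEN1 fell with -3.28 against Scramble and -2.81 against siNTC5.

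Targets of YAP and TEAD, the effectors of the Hippo pathway, also divided, with 9 of 25 higher against both, 6 lower and 2 opposite. NT5E, the ectoenzyme CD73, fell with -3.65 against Scramble and -2.24 against siNTC5, and IGFBP3 fell with -2.94 against Scramble and -1.73 against siNTC5. The matricellular genes CCN1 and CCN2, joined through their older names, rose with 1.64 against Scramble and 1.63 against siNTC5 and with 3.47 against Scramble and 2.47 against siNTC5. Interferon-stimulated genes were higher against both in 11 of 31 and lower in 2; the antiviral gene DDX60 was at 77.5, 79.6, 79.6 and 73.1 CPM in siHNRNPK, 13.6 and 12.2 CPM in Scramble and 16.5, 17.6, 13.9 and 15.3 CPM in siNTC5, above all controls in each library. Of 29 p53 targets 8 were higher against both, 7 lower and 2 opposite. PLK2 rose with 1.04 against Scramble and 1.34 against siNTC5, XPC, a DNA damage sensor, fell with -2.25 against Scramble and -1.93 against siNTC5, and GDF15, a stress cytokine, went opposite ways with -2.36 against Scramble and 0.60 against siNTC5.

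Amino acid response genes mostly went in opposite directions. ATF4 is the transcription factor that raises amino acid transport and synthesis when amino acids are short or proteins misfold. Of 25 tested members 21 were higher against siNTC5, and 20 were lower against Scramble. For 16 members (64%) both held, 2 were higher against both and 1 was lower against both. The median log2 fold change was -0.94 against Scramble and 1.03 against siNTC5. In the contrasts with no library in common 14 members went in opposite directions. Without a kit term the 16 members became 10, and with a 2-fold change required in both contrasts 4.

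ATF4 itself was at 912, 877, 904 and 907 CPM in siHNRNPK, 894 and 859.6 CPM in Scramble and 381, 389, 501 and 474 CPM in siNTC5. The siHNRNPK and Scramble values overlapped and the siNTC5 values lay below both. Its log2 fold change was 1.06 ± 0.05 (SE) against siNTC5 (edgeR adjusted p = 8.83e-12) and -0.05 ± 0.07 against Scramble (edgeR adjusted p = 0.515). DDIT3, the stress-induced factor CHOP, was at 59.5, 64.7, 71.9 and 70.4 CPM, 61.4 and 60.5 CPM and 13.5, 14.3, 26.3 and 23.1 CPM in the same order, and its log2 fold change was -0.10 against Scramble and 1.83 against siNTC5, the first of which was not called. CHAC1, a glutathione-degrading enzyme gene (chr15:40953471-40956512), was at 40.7, 41.7, 52.1 and 53.5 CPM in siHNRNPK, 163 and 148 CPM in Scramble and 3.66, 3.55, 38.1 and 30.9 CPM in siNTC5. Its siHNRNPK values lay between the control sets, and its log2 fold change was -2.40 ± 0.34 (SE) against Scramble and 1.65 ± 0.32 against siNTC5. Within siNTC5 its level followed the kit.

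TRIB3, a pseudokinase that ATF4 induces, had log2 fold changes of -2.51 against Scramble and 0.18 against siNTC5, the second of which was not called. SLC7A11, the cystine transporter, went opposite ways with -0.46 against Scramble and 1.63 against siNTC5, and so did JDP2, a partner of ATF factors, with -1.28 against Scramble and 1.25 against siNTC5. ATF3, an early stress factor, was the only 1 of the 25 tested members outside the set-apart genes that rose against both. It was at 106, 109, 134 and 133 CPM in siHNRNPK, 76.5 and 74.0 CPM in Scramble and 18.1, 22.4, 30.3 and 25.2 CPM in siNTC5. It was highest in siHNRNPK and rose with 0.49 against Scramble and 2.33 against siNTC5. ASNS, asparagine synthetase and a classical target, belongs to the set-apart genes, with 8.62, 10.9, 11.4 and 11 CPM in siHNRNPK, 919 and 842 CPM in Scramble and 2.19, 2.26, 6.30 and 5.34 CPM in siNTC5. DDIT4, an inhibitor of mTOR signalling, was lower against both with -2.43 against Scramble and -0.78 against siNTC5.

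The aminoacyl-tRNA synthetases, which ATF4 also induces, carry different symbols in the tables and enter when older names are matched. With them the list had 35 tested members, of which 23 were higher against siNTC5 and lower against Scramble, 3 higher against both and 1 lower against both. AARS1 and TARS1, which charge the tRNAs of alanine and threonine, had -0.46 against Scramble and 1.16 against siNTC5 and -0.35 against Scramble and 0.82 against siNTC5. MARS1, for methionine, was higher in both comparisons with 0.57 against Scramble and 1.25 against siNTC5. In serine synthesis, 3 of 12 tested genes were higher against siNTC5 and lower against Scramble. PSAT1, an aminotransferase of the pathway, was at 431, 441, 424 and 413 CPM in siHNRNPK, 614 and 574 CPM in Scramble and 127, 131, 201 and 188 CPM in siNTC5, with Scramble highest and siNTC5 lowest. PHGDH, its first enzyme, was at 229, 228, 237 and 258 CPM, 299.8 and 258 CPM and 72.2, 71.4, 112 and 107 CPM, and its siHNRNPK range touched the Scramble range. PYCR1, a proline synthesis gene, fell against both with -1.53 against Scramble and -0.75 against siNTC5.

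ATF4 binds, with a C/EBP partner, the composite element TGATGNAA. It was sought on both strands of the same 300-base RefSeq windows and was present in 5 of 23 windows matched to the list (21.7%; ASNS, ATF3, CHAC1, SLC3A2 and SLC7A1), in 3.67% of all 27305 windows and in 1.62% of those of tested genes. The stretches around it are shown for the 3 members in which it lay wholly before the annotated start. ASNS is a set-apart gene, ATF3 rose against both control sets and CHAC1 went opposite ways. Capitals mark the element; in CHAC1 it lies on the other strand. The stretches are chr7:97872449-97872496 (minus strand), chr1:212565196-212565243 (plus strand) and chr15:40953242-40953289 (plus strand), and the element begins 68, 191 and 209 bases before the annotated starts.
ASNS: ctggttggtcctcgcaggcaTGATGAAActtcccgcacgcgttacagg
ATF3: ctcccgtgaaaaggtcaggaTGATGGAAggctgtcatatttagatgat
CHAC1: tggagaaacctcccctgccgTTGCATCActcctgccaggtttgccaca
The element is thus present both in a gene that rose against both control sets and in one that went opposite ways.

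**Figure D5:**
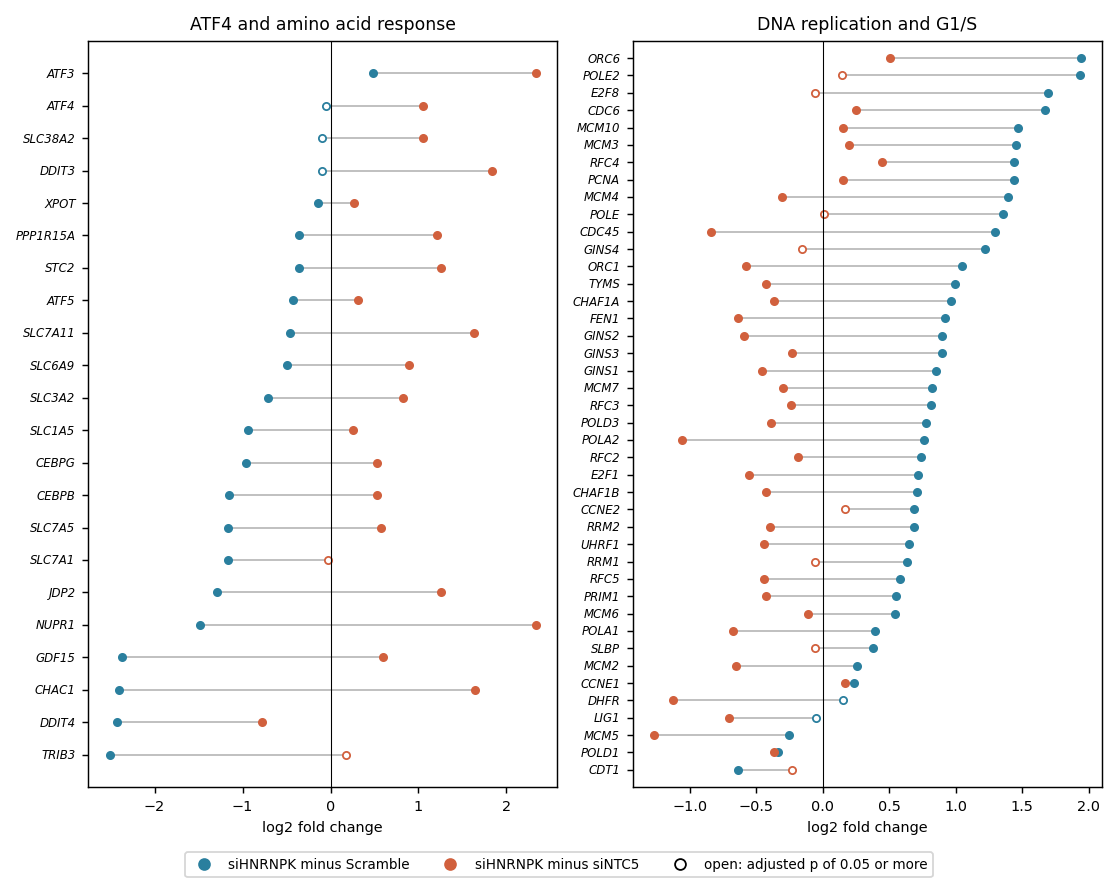
Log2 fold change of each member of the ATF4 and amino acid response list (left) and the DNA replication and G1/S list (right), siHNRNPK minus Scramble in blue and siHNRNPK minus siNTC5 in orange; open circles are not called, and genes with both Scramble libraries set apart are left out. On the left most blue circles lie below 0 and most orange ones above it, and on the right most pairs lie the other way round.

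Other stress lists were less uniform. Endoplasmic reticulum folding genes were higher against both in 8 of 28, lower against both in 7 and opposite in 6, with 5 higher against both when Scramble library 5 was left out. DNAJB11, a cochaperone of the lumen, and EIF2AK3, the stress sensor PERK, rose with 0.78 against Scramble and 0.90 against siNTC5 and with 0.65 against Scramble and 1.00 against siNTC5, and CRELD2 fell with -1.50 against Scramble and -1.39 against siNTC5. The endoplasmic reticulum stress element was found in 7 of 27 matched windows (25.9%), among them those of HSPA5, CALR and CRELD2, in 0.0806% of all windows and in 0.136% of those of tested genes. Cytosolic heat shock chaperones were higher against both in 8 of 21 and lower in 2; DNAJB4 and DNAJA1, which stimulate HSP70, rose with 1.06 against Scramble and 0.95 against siNTC5 and with 0.65 against Scramble and 0.45 against siNTC5, and the small heat shock protein gene HSPB1 fell with -1.23 against Scramble and -0.60 against siNTC5. The heat shock element was found in 3 of 19 matched windows (15.8%), in 0.487% of all and in 0.353% of those of tested genes. NRF2 targets were lower against both in 8 of 24, with HMOX1, heme oxygenase, at -1.28 against Scramble and -0.58 against siNTC5, and higher in 2. Another 3 were higher against siNTC5 and lower against Scramble, and 1 had the reverse pattern. Without a kit term these counts were 1 and 0, and with upper-quartile scaling 0 and 1.

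In DNA replication genes the reverse pattern was the most frequent. Of 43 tested members 23 were lower against siNTC5 and higher against Scramble (53.5%), none had the other opposite pattern, 7 were higher against both and 2 lower against both. Without a kit term the 23 became 16, and none had a 2-fold change in both contrasts. The 7 higher against both became 4 without siHNRNPK library 4 or without siNTC5 library 4, and 2 without a kit term. The median log2 fold change was 0.77 against Scramble and -0.30 against siNTC5. CDC45, a component of the replicative helicase, was at 35.9, 35.2, 21.7 and 25.9 CPM in siHNRNPK, 15.0 and 13.6 CPM in Scramble and 57.4, 66.7, 42.5 and 44.5 CPM in siNTC5. All siHNRNPK values lay between the control sets, below siNTC5 and above Scramble. Its log2 fold change was 1.30 ± 0.10 (SE) against Scramble and -0.84 ± 0.07 against siNTC5. MCM2, a subunit of the same helicase, went the same ways with 0.26 against Scramble and -0.65 against siNTC5. ORC6, of the origin recognition complex, and RFC4, of the clamp loader, rose against both with 1.94 against Scramble and 0.50 against siNTC5 and with 1.44 against Scramble and 0.45 against siNTC5.

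Mitosis genes rose against Scramble and divided against siNTC5: 37 of 40 were higher against Scramble, 17 were higher and 7 lower against siNTC5, and 17 were higher against both. The median log2 fold change was 0.81 against Scramble and 0.04 against siNTC5. MKI67, the proliferation marker Ki-67, was at 909, 893, 841 and 862 CPM in siHNRNPK, 497 and 487 CPM in Scramble and 1022, 1151, 981 and 1085 CPM in siNTC5, so the Scramble libraries were the lowest and siNTC5 the highest. FOXM1, which drives mitotic transcription, was 1 of 4 members higher against Scramble and lower against siNTC5, with 1.27 against Scramble and -0.63 against siNTC5. CCNB2 and TTK, a cyclin and a checkpoint kinase, rose with 1.18 against Scramble and 0.63 against siNTC5 and with 1.33 against Scramble and 0.49 against siNTC5, and CDC25B, the phosphatase that activates CDK1, fell with -1.40 against Scramble and -1.17 against siNTC5.

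Cytosolic ribosomal protein genes were higher against siNTC5 in 58 of 82 and divided against Scramble, with 24 higher and 42 lower. Of them 20 were higher against both, none was lower against both and 24 were higher against siNTC5 and lower against Scramble. This division moved with the scaling: with upper-quartile scaling 32 were higher against both and 22 had that opposite pattern, and with unscaled totals the numbers were 34 and 13. RPS6 was at 1749.9, 1772, 2092 and 2124 CPM in siHNRNPK, 2628 and 2649.6 CPM in Scramble and 1343, 1270.4, 1593 and 1481 CPM in siNTC5, with Scramble highest. RPL7 was at 2258, 2317, 2262 and 2272 CPM, 273 and 268 CPM and 1751, 1699, 1702 and 1617 CPM, with Scramble lowest by far. Ribosomal protein genes have many processed pseudogenes that can share reads, and 8 of the list are set-apart genes, so single members are uncertain.

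Nuclear genes of oxidative phosphorylation were lower against Scramble in 47 of 60 and against siNTC5 in 28, with 23 lower against both, 2 higher against both and 10 opposite. The opposite count was 6 without siHNRNPK library 1, without siNTC5 library 4 or with the replicate block, 5 with TruSeq libraries alone and 4 without a kit term. Their median was -0.52 against Scramble and -0.10 against siNTC5. The complex I subunit genes NDUFA7 and NDUFB7 fell with -1.01 against Scramble and -1.33 against siNTC5 and with -2.12 against Scramble and -1.01 against siNTC5, and COX8A of complex IV with -1.66 against Scramble and -0.78 against siNTC5. Of the ATP synthase genes joined by older names, ATP5F1D fell with -4.09 against Scramble and -2.45 against siNTC5 and ATP5PD with -2.02 against Scramble and -1.62 against siNTC5.

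At the nuclear envelope, lamins and inner membrane proteins were lower against both in 8 of 22 and higher against both in 6. LMNA, which encodes lamins A and C, was at 211, 204, 312 and 300.3 CPM in siHNRNPK, 701 and 714 CPM in Scramble and 428, 349.8, 503 and 496 CPM in siNTC5. It was lowest in siHNRNPK without overlap, with a log2 fold change of -1.71 ± 0.07 (SE) against Scramble and -0.80 ± 0.06 against siNTC5. SUN2, which links the lamina to the cytoskeleton, fell with -1.48 against Scramble and -0.95 against siNTC5, and ZMPSTE24, the protease that matures lamin A, rose with 1.01 against Scramble and 0.83 against siNTC5. Nuclear pore genes were higher against both in 15 of 31 and lower in 3; NUP153 and NUP214 rose with 0.95 against Scramble and 0.65 against siNTC5 and with 1.55 against Scramble and 0.66 against siNTC5, and NUP210 fell with -1.37 against Scramble and -1.44 against siNTC5.

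Chromatin regulators did not share a direction. Of 26 genes of H3K9 methylation and HP1, 6 were higher against both and 5 lower, of 37 Polycomb genes 9 and 7, and of 17 DNA methylation genes 5 and 1. Opposite directions were seen for 3 genes of H3K9 methylation and HP1, 3 Polycomb genes and 4 DNA methylation genes (23.5%). Without a kit term, 1 DNA methylation gene was left in each of the opposite patterns. Without Scramble library 6, 3 DNA methylation genes were higher against both, and without siHNRNPK library 2 or 4 the opposite H3K9 and HP1 genes were 1. PRDM2, an H3K9 methyltransferase gene, rose with 1.79 against Scramble and 1.11 against siNTC5 and EHMT1, of the enzyme pair for H3K9me2, fell with -0.72 against Scramble and -0.42 against siNTC5. EZH2, the Polycomb methyltransferase, was at 109.8, 109.9, 94.8 and 102 CPM in siHNRNPK, 41.4 and 44.2 CPM in Scramble and 97.7, 122, 96.7 and 95.8 CPM in siNTC5. Its siHNRNPK values overlapped siNTC5 and lay above Scramble, so it was called only against Scramble (1.37, with 0.01 against siNTC5).

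Numbered zinc finger genes, many of which encode KRAB repressors that silence transposable elements, were higher against both control sets in many cases. Of 398 tested 164 were higher against both (41.2%, against 24.6% of all tested genes), 46 lower (11.6%) and 11 opposite, with a median log2 fold change of 0.33 against Scramble and 0.28 against siNTC5. HOX genes, which specify position along the body axis, were higher against both in 10 of 29 and lower in 3. HOXA3 was at 13.4, 13.3, 11.6 and 13.4 CPM in siHNRNPK, 2.58 and 2.08 CPM in Scramble and 3.37, 1.80, 2.75 and 2.64 CPM in siNTC5, above all controls. HOXA4 and HOXA2 rose with 2.85 against Scramble and 2.32 against siNTC5 and with 5.71 against Scramble and 3.12 against siNTC5 from control means under 1.5 CPM.

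The same comparison was read along the lamin B1 and histone mark domains deposited for these cells, with a gene placed in a domain when at least 50% of its body lay inside. Of 465 tested genes in lamin B1 domains of control cells, 179 were higher against both control sets (38.5%) and 48 lower (10.3%). Their median log2 fold change was 0.55 against Scramble and 0.35 against siNTC5. Over all 14156 genes with a position, 24.6% were higher and 25.9% lower against both. The median over those genes was -0.05 against Scramble and 0 against siNTC5. Genes in lamin B1 stretches called in control but not in knockdown cells (312) had a median of 0.65 against Scramble and 0.37 against siNTC5, and those in stretches called in both (140) had 0.30 against Scramble and 0.36 against siNTC5. The second group holds 18 set-apart genes of 140 and the first 14 of 312, and without them the medians were 0.70 against Scramble and 0.41 against siNTC5 in the first group and 0.48 against Scramble and 0.43 against siNTC5 in the second. Genes in stretches called only in knockdown cells (242) went the other way: 111 were lower against both, 29 higher, and the median was -0.60 against Scramble and -0.35 against siNTC5. Genes in control H3K9me2 domains (202) had a median of 0.59 against Scramble and 0.49 against siNTC5. Of them 93 were higher (46.0%) and 10 lower (4.95%) against both. For H3K9me3 (444 genes) the median was 0.33 against Scramble and 0.29 against siNTC5 and for H3K27me3, the Polycomb mark (1551 genes), it was 0.17 against Scramble and 0.18 against siNTC5. When any overlap placed a gene in a domain, these medians were 0.20 against Scramble and 0.15 against siNTC5 for H3K9me3 and 0.07 against Scramble and 0.09 against siNTC5 for H3K27me3. Set-apart genes were 21 of the 202 H3K9me2, 47 of the 444 H3K9me3 and 103 of the 1551 H3K27me3 genes. Without them the medians against Scramble were 0.71, 0.46 and 0.24, and against siNTC5 0.57, 0.32 and 0.21. For stretches called only in knockdown cells the medians without set-apart genes were -0.51 against Scramble and -0.37 against siNTC5. Neighbouring genes share a domain, so these are descriptions without a test.

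Epithelial and adhesion genes changed member by member. Keratins were higher against both in 6 of 15 and lower in 2, but without Scramble library 6 only 3 were higher against both. KRT18, a simple-epithelium keratin, was at 1730.2, 1616, 1688 and 1860.3 CPM in siHNRNPK, 805 and 791 CPM in Scramble and 645, 675, 655 and 635 CPM in siNTC5, above all controls. KRT19 was at 297, 273, 363 and 393 CPM, 1508 and 1551 CPM and 756, 601, 946 and 929 CPM, below all controls. Genes named as integrins or their partners were higher against both in 9 of 24 and lower in 7. Another 1 was higher against siNTC5 and lower against Scramble, and 2 had the reverse pattern. ITGB4, the hemidesmosome integrin that anchors epithelium to the basement membrane, was at 75.6, 68.2, 112 and 113 CPM in siHNRNPK, 1181 and 1141 CPM in Scramble and 437, 289, 597 and 614 CPM in siNTC5. It was lowest in siHNRNPK and highest in Scramble, with a log2 fold change of -4.04 ± 0.11 (SE) against Scramble and -2.38 ± 0.09 against siNTC5, and ITGAM, an integrin chain best known from leukocytes, rose with 4.09 against Scramble and 2.40 against siNTC5.

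Epithelial identity genes were lower against both in 9 of 28, higher in 3 and opposite in 8 (28.6%). The tight junction gene CLDN7 was at 59.5, 56.5, 66.0 and 68.1 CPM in siHNRNPK, 358 and 329 CPM in Scramble and 55.5, 49.7, 53.7 and 58.1 CPM in siNTC5. The siHNRNPK and siNTC5 libraries overlapped and Scramble was several-fold higher, so its calls went opposite ways (-2.54 against Scramble and 0.20 against siNTC5). OCLN, the tight junction protein occludin, did so too with -1.64 against Scramble and 1.13 against siNTC5. Mesenchymal genes were lower against both in 6 of 18 and higher in 5: LOXL2, a collagen crosslinker, fell with -4.34 against Scramble and -2.55 against siNTC5, and THBS1 rose as given above.

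Markers of epithelium were present in all groups, as the labelled cell line would have. The summed level of 7 epithelial markers was 4450 to 5460 CPM in siHNRNPK, 4470 to 4600 CPM in Scramble and 2740 to 3170 CPM in siNTC5, with VIL1 under 1 CPM in every group. The 24 markers of blood, stromal, endothelial, neural and muscle cells summed to 107 to 158 CPM in siHNRNPK, 111 to 121 CPM in Scramble and 73 to 113 CPM in siNTC5. Of these 24, 19, 16 and 20 were under 1 CPM in every library of the 3 groups, and 3, 5 and 7 had no count at all. Of the 9 that passed the filter, 1 was higher and 5 lower against Scramble (median log2 fold change -1.14), and 3 were higher and 1 lower against siNTC5 (median 0.13). COL1A1, a collagen gene, rose with 1.20 against Scramble and 0.68 against siNTC5, and DES, the muscle filament gene desmin, fell with -1.84 against Scramble and -0.72 against siNTC5. CD68, a macrophage marker, fell by 1.47 against Scramble on the log2 scale and was not called against siNTC5. The part of these levels in the results above was not tested.

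Finally, the rule for opposite directions named 5 genes of each kind. Of those higher against siNTC5 and lower against Scramble, BFAR, LOC728554, NDUFS3 and RINL are set-apart genes with no count in any siNTC5 library, at most 0.34 CPM in siHNRNPK and over 30 CPM in Scramble. HSP90B2P, a pseudogene of the endoplasmic reticulum chaperone HSP90B1 that may share reads with it, was at 2.17, 3.49, 1.68 and 2.62 CPM in siHNRNPK, 26.9 and 34.5 CPM in Scramble and 0.177, 0.0836, 0.134 and 0.110 CPM in siNTC5. SLC4A5, a bicarbonate transporter that enters when set-apart genes are left out, had -1.46 against Scramble and 2.10 against siNTC5. Of those lower against siNTC5 and higher against Scramble, TARBP1, a tRNA methyltransferase, was at 12.6, 15.6, 11.6 and 9.41 CPM in siHNRNPK, 5.43 and 5.90 CPM in Scramble and 31.1, 34.0, 26.6 and 27 CPM in siNTC5. The siHNRNPK libraries lay between the control sets without overlap, with log2 fold changes of 1.28 ± 0.12 (SE) against Scramble and -1.28 ± 0.09 against siNTC5. GPR157, an orphan receptor, CFAP44, of cilia, and WDR27 followed with 1.41 against Scramble and -1.22 against siNTC5, with 1.18 against Scramble and -1.18 against siNTC5 and with 1.71 against Scramble and -0.92 against siNTC5. RUSC1-AS1 is a set-apart gene that overlaps FDPS and RUSC1, with 0.120 and 0 CPM in Scramble, 12.1, 11.7, 12.8 and 9.16 CPM in siHNRNPK and 24.2, 29.9, 26.9 and 29.6 CPM in siNTC5.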

How the data were processed

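RNA was measured in 4 siHNRNPK, 2 Scramble and 4 siNTC5 libraries, grouped by the library names in the labels. The authors deposited raw counts per gene symbol, in 1 table for the siHNRNPK and siNTC5 libraries and 1 table for each Scramble library. Per the submitters' processing notes, reads were aligned with STAR 2.7.1a and counted with featureCounts. Those notes name Subread 2.0.6 and hg38 for the table of 8 libraries, and hg19, hg38 and DESeq2 for the Scramble tables. The build and annotation behind the Scramble counts are therefore uncertain. The chromatin domain lists that the authors deposited give coordinates with 1 score per domain. Only the coordinates were used, on hg38, and the domain caller is not given in the sources used here.

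Counts were joined on 25527 shared names, filtered with filterByExpr by group, TMM-scaled and fitted in edgeR 4.0.16 (R 4.3.3) with group and kit as terms over all 10 libraries. The quasi-likelihood test was run for each contrast, with Benjamini-Hochberg adjustment over all tested genes. The contrast of Scramble with siNTC5 tests the difference between the knockdown effects. A fit with a term for each group and kit gave the contrasts without shared libraries. Scripts were tested on simulated counts.

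Named genes are HNRNPK, the 8 raised and 8 lowered in both contrasts with the largest smaller change (mean log2 CPM of at least 3, no overlap with any control), 5 of each opposite kind, and in each list 3 members of the same and 1 of opposite direction. Some lead genes were dropped when set-apart genes were left out and the next in order were named. ACTN4, RPS18, RPL21, FASN, INSIG1, FADS2, NDRG1, CA9, LDHA, GAPDH, GAS5, ZFAS1, NFKBIA, TNFAIP3, ATF4, DDIT3, TRIB3, PHGDH, ASNS, MCM2, MKI67, RPS6, RPL7, EZH2, KRT18, CLDN7, CD68, MDC1 and the genes joined by older names lie outside this rule and were chosen after their values were seen. Some genes that the rule names are not reported here. The members and lists were chosen with earlier results of these data known. Lists of replication-dependent histone genes and mitochondrially encoded mRNAs had no tested member.

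The labels do not say what the replicate numbers of siHNRNPK and siNTC5 mark. Deviations of same-numbered libraries from their group means correlated at 0.173, 0.594, 0.491 and 0.423. The main fit did not pair these libraries, and a replicate block was fitted only as an alternative. The numbers move with the kit: after its removal the correlations were 0.103, 0.103, 0.006 and 0.006. Libraries 2 and 3 of siHNRNPK correlated best with their own number, and libraries 1 and 4 with numbers 2 and 3. The Scramble libraries were counted as 2 samples. A chi-square per degree of freedom of 8.04 between them exceeded 1, the value of counting noise alone. This measure grows with depth, so it cannot tell separate cultures from separate preparations of the same RNA. Alternatives were other scalings (DESeq2 1.42.0 size factors, upper quartile, unscaled totals), DESeq2's test, other filters, no kit term, TruSeq libraries alone, thinned Scramble counts, a fold threshold, a replicate block, older names matched (747 names), and each library left out. Promoter windows, gene positions and overlaps come from RefSeq (GRCh38.p14).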

Additional observations from a re-analysis of the deposited data

Results flagged for a closer look

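In groups of 4 libraries, 54 sets of values were checked for a library set apart from the other 3, and chance alone would set apart about 1 in 20. In siHNRNPK, library 4 of KRT80 lay above the other 3 (gap over range 0.875, above Dixon's critical value), and for AOC3 1 siHNRNPK library stood apart likewise (0.831). Both genes were far above every control in all 4 libraries.

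The knockdown effect against siNTC5 differed between the kits, by an interaction test in edgeR, for 4 genes that the naming rule gives. The log2 effect with the Ligation kit minus that with the TruSeq kit was -2.9 for CHAC1 (edgeR adjusted p = 1.54e-08), -1.0 for SLC7A11 (1.38e-06 in edgeR), -0.65 for PSAT1 (0.000223 in edgeR) and 1.15 for JUN (0.00403 in edgeR). Among the genes chosen after their values were seen it was -0.75 for TRIB3 (0.000789 in edgeR) and -0.50 for PHGDH (0.0115 in edgeR). CHAC1, SLC7A11 and PSAT1 are amino acid response genes with opposite directions against the control sets, and JUN is an early gene with opposite directions, whose call against Scramble was lost in several alternatives. The early genes FOSB and NR4A1, which the rule does not name, were called too, with 2.53 (4.81e-07 in edgeR) and 1.45 (1.38e-06 in edgeR). Their log2 effects against siNTC5 were -1.17 and -0.29 with the TruSeq kit and 1.36 and 1.17 with the Ligation kit. Libraries of the kits share no culture label, and the part of the kit was not tested apart from that of the cultures.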

How the results depend on the processing

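Of the counts over all genes and over the lists, 8 moved by more than 1.5 times. Without a kit term, opposite directions fell to 716 genes over all and 94 in the lists, where a gene in several lists counts in each (155 with the kit term). A 2-fold threshold left 5593 genes against Scramble, 2481 against siNTC5, 1927 with the same and 74 with opposite directions, and in the lists 143 and 7. Leaving out each library in turn gave 11229 to 11930 genes against Scramble, 9465 to 10029 against siNTC5, 6889 to 7351 with the same and 936 to 1214 with opposite directions; in the lists 648 to 691 and 136 to 164; with no library in common 5525 to 6653 and 628 to 1029; and a log2 fold change of HNRNPK of -2.007 to -1.875. With 1 library left in Scramble, it was assumed to vary like the other groups.

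Upper-quartile scaling shifted the median log2 fold change against Scramble by 0.18, and unscaled totals by 0.20. The share of Scramble calls that were higher then was 56.6% and 57.5%, in place of 47.7%. With the replicate block in place of the kit, 9819 genes were called against siNTC5, 7273 with the same and 1077 with opposite directions, and the block moved no such count by over 1.5 times. Of 7238 values of 166 named genes under these alternatives, none reversed and 184 lost their call. The rule named these genes for their calls and large changes in both contrasts, so this says little about other genes. RINL against siNTC5, KRT10 and JUN against Scramble lost their call most often. In the low range, depth limits what is seen: genes under 1 CPM in the 8 shallower libraries rest on few counts.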

Other observations

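The set-apart genes were unevenly placed. In and around the major histocompatibility complex on chromosome 6, 85 of 111 tested genes (76.6%) were of this kind, and in pseudoautosomal region 1 of chromosome X 11 of 12 were (91.7%), against 5.07% of all tested genes. Among genes overlapped by another RefSeq gene the share was 5.46% (471 of 8633), and among the others 4.38% (242 of 5523). MDC1, a DNA damage mediator of that chromosome 6 region, had 79.3 and 83.0 CPM in Scramble and at most 0.134 CPM in the other libraries. Names of ribosomal RNA were listed with counts only in the Scramble tables, at 2.32% and 2.36% of their totals.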
